A study of Mus musculus with 36 samples.

Results

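The genes described here encode the proteins of the cytoplasmic ribosome, taken as the autosomal protein-coding genes of the mouse whose symbol is Rpl or Rps followed by a number and at most 1 letter, together with Rplp0, Rplp1 and Rplp2. The rule leaves out ribosomal S6 kinases, like genes and pseudogenes, and it found 71 of 20807 autosomal protein-coding genes, namely 40 of the large subunit, 28 of the small subunit and 3 of the stalk. Histone marks at these genes were read from chromatin immunoprecipitation sequencing (ChIP-seq) of the mouse hippocampus on postnatal day 0 (P0) and of neurospheres, clusters of neural progenitors grown in suspension. In the conditional knockout (cKO) mice, labelled Kdm2bEmx1-delta-CxxC, exon 13 of Kdm2b, which encodes the CxxC zinc finger, was removed by Emx1-Cre. The control (Ctrl) mice carried the floxed allele without this deletion and were labelled as Kdm2bfl/+ or Kdm2bfl/fl. The neurospheres were grown for 3 generations from P0 hippocampi of both genotypes. Emx1-Cre acts in progenitors of the dorsal forebrain and their descendants, so cells of the hippocampus in which it is not active, such as those of blood vessels and microglia, keep the CxxC domain. The marks were H2AK119ub1, H3K27me3 and H3K36me2, with 2 libraries for each mark, source and genotype and 24 libraries in all. The labels do not say whether replicates came from separate animals or cultures, so p-values measure only the spread between these libraries.

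Ribosomal protein genes are transcribed at a high rate in growing cells and are needed in every cell type. Most of their promoters lie in CpG islands, stretches of DNA rich in unmethylated CpG. Such islands can also recruit Polycomb: the CxxC domain of KDM2B brings a variant Polycomb repressive complex (PRC1) to them, which places H2AK119ub1, and PRC2 places H3K27me3, and both marks cover silent developmental genes such as the Hox genes. H3K36me2 is a mark of transcribed and intergenic chromatin and a substrate of the demethylase domain of KDM2B. The promoters of ribosomal protein genes therefore stand as active CpG islands beside the silent ones, and the question here was where each mark lay around them and whether it differed between the genotypes.

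The deposited files list islands, broad regions with more reads than the input DNA, with the count of reads in each. Coverage below means the share of bases of a promoter (from 2 kb before to 2 kb after the annotated start) or of a gene body that lies inside islands. A stretch outside islands has an unknown count, not a count of 0. The counts in islands ranged from 987329 to 6799122 per library for hippocampus H2AK119ub1, from 1681001 to 5525016 for hippocampus H3K27me3 and from 3109819 to 4504325 for hippocampus H3K36me2. In neurospheres they ranged from 5025115 to 17734396, from 13195590 to 17025504 and from 10587042 to 22021439 for the same marks. The covered length differed as widely, from 37.3 to 247 Mb within hippocampus H2AK119ub1 and from 127 to 327 Mb within neurosphere H2AK119ub1, and differences of coverage between libraries have to be read against that. At ribosomal protein promoters, neurosphere Ctrl replicate 1 had the highest mean H2AK119ub1 coverage, 24.9%, beside 10.9% in neurosphere cKO replicate 2. Neurosphere cKO replicate 1 had the highest mean H3K36me2 coverage, 11.4%, beside 4.47% in neurosphere Ctrl replicate 1. As a check of the labelled source, H3K27me3 covered 100% of the promoters of all 8 Polycomb targets of other lineages, among them Hoxa9, Gata4 and Myod1, in all 8 libraries. Among 8 forebrain and progenitor genes it was present at 1 to 6 per library, and it covered Pax6 in 7 of the 8 libraries and Emx1 in 5. A change in the share of cells that carry a mark and a change of its level per cell cannot be told apart in these bulk samples.

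Promoter sequences of 7 genes are shown as examples, and a link between sequence and marks was not tested. H3K27me3 islands ended shortly upstream of Rpl38, Rpl26 and Rpl5 in most libraries, Rplp0 is the stalk gene with a RefSeq start identical to the annotated one, and Rps6, Rpl27a and Rpl7a carried no island of any mark. Each line gives 100 bases of the strand that is transcribed, 5′ to 3′, from the RefSeq promoter table of GRCm38.p6 (mm10), with 80 bases before the RefSeq start and 20 from it. Capitals mark a run of at least 8 C and T that lies within 10 bases of that start, the tract at which mRNAs of the terminal oligopyrimidine (TOP) class begin.
Rpl38, large subunit, chr11:114668500-114668599, plus strand: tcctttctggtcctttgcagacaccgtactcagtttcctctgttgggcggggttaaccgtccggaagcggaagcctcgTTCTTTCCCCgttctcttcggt
Rpl26, large subunit, chr11:68901486-68901585, plus strand: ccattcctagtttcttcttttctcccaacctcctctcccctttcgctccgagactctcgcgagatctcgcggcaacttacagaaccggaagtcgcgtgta
Rpl5, large subunit, chr5:107900448-107900547, plus strand: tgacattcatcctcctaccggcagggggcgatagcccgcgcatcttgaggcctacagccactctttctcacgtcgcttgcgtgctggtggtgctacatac
Rpl27a, large subunit, chr7:109519115-109519214, plus strand: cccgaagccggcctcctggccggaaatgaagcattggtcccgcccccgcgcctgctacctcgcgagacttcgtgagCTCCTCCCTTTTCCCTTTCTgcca
Rpl7a, large subunit, chr2:26910727-26910826, plus strand: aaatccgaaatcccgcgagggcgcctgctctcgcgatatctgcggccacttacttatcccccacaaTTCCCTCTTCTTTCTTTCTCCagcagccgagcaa
Rps6, small subunit, chr4:86857348-86857447, minus strand: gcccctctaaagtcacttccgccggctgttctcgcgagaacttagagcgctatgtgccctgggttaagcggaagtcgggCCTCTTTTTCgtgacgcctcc
Rplp0, stalk, chr5:115559387-115559486, plus strand: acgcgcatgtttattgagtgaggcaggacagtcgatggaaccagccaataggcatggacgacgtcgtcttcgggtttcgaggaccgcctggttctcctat

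The pyrimidine run had 10 bases in Rpl38 and Rps6, 20 in Rpl27a and 21 in Rpl7a, and no run of 8 was found within 10 bases of the RefSeq start of Rpl26, Rpl5 or Rplp0. In Rpl5 the run ctctttctc lay just upstream of that window, and the principal start lies 26 bp upstream of the RefSeq start. Whether Rpl5 has a run near its start thus depends on the start used. Of the 71 genes, 51 had an entry in the RefSeq promoter table. Of these, 24 (47.1%) had a run of at least 8 within 10 bases of the start, against 13.7% of 15686 autosomal promoters in the table and 13.04% of 69 mitochondrial ribosomal protein genes. CpG-rich promoters of the table, 7694 in all, had the run in 12.7%. The start base was C in 35.3% of the 51, in 14.5% of the mitochondrial list, in 15.3% of CpG-rich promoters and in 14.03% of all. The motifs below were searched on both strands of 300 bases, 250 before and 50 from the start, and shares are given for the 51 genes and then for the mitochondrial list, the CpG-rich promoters and all promoters. CCGGAAG, a core that ETS factors bind, was found in 37.3%, against 36.2%, 20.2% and 12.7%. CTCGCGAG was found in 13.7%, against 2.90%, 2.35% and 1.28%, and Rpl26, Rpl27a and Rps6 above hold it. GGGCGG, the GC box, was found in 56.9%, against 47.8%, 74.2% and 49.1%. TATAAA was found in 5.88%, against 5.80%, 5.29% and 12.9%, and AAGATGGCG in 5.88%, against 11.6%, 3.56% and 2.06%. CCAAT was found in 29.4%, against 39.1%, 37.5% and 38.3%, and CACGTG in 9.80%, against 7.25%, 11.1% and 8.08%. Some of these windows hold several of the motifs, and a match of letters is not a binding site.

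By the annotation, 61 of the 71 promoters (85.9%) were CpG-rich, meaning that the 1 kb around the start had more than 50% GC and over 0.6 of the CpG that its base composition predicts, against 45.7% of all autosomal promoters. The genes were short, with a median length of 3289 bp beside 17629 bp for all. Small nucleolar RNAs, which guide the modification of ribosomal RNA, lay inside 26 of them (36.6%), and inside 1.17% of all genes. A further gene began head-to-head with 8 of them (11.3%), near the 12.7% of CpG-rich promoters. The share was 23.1% of mitochondrial ribosomal protein genes and 6.97% of all genes. The annotated start of 6 genes lay over 1 kb from that of the principal transcript, by 27498 bp for Rps14, 8462 bp for Rpl3 and 1919 bp for Rpl17. Coverage is given for the annotated start, and distances to islands were measured from the principal start.

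Most ribosomal protein promoters carried few islands. In all 24 libraries, 26 of the 71 (36.6%) had no island of any mark within 2 kb of the start, against 19.2% of 9506 CpG-rich promoters and 22.1% of all. For H2AK119ub1 and H3K27me3 alone the share was nearer to the other lists. Free of both were 29 promoters (40.8%), against 34.9% of CpG-rich promoters, 34.5% of all and 43.6% of 78 mitochondrial ribosomal protein genes. H3K36me2 was absent from 69.0% of the 71, against 42.5% of CpG-rich promoters. Both promoter and gene body were free of all 3 marks in 21 genes (29.6%, beside 5.41% of CpG-rich and 12.1% of all genes). Among them were Rpl6, Rpl7, Rpl7a, Rpl9, Rpl15, Rpl24, Rpl27, Rpl27a, Rpl28, Rpl30, Rpl37 and Rpl37a of the large subunit, and Rps6, Rps9, Rps13, Rps18, Rps23, Rps25, Rps27 and Rps27a of the small subunit. Rps6 is the ribosomal substrate of S6 kinase, and Rps27a is made as a fusion with ubiquitin. The bodies of these genes are short, so the comparison of bodies depends on length as well as on the mark. In the 12 hippocampus libraries 56 promoters (78.9%) were free of islands, beside 56.1% of CpG-rich promoters, and the share was 80% for the large subunit, 78.6% for the small subunit and 66.7% for the stalk.

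**Figure D1:**
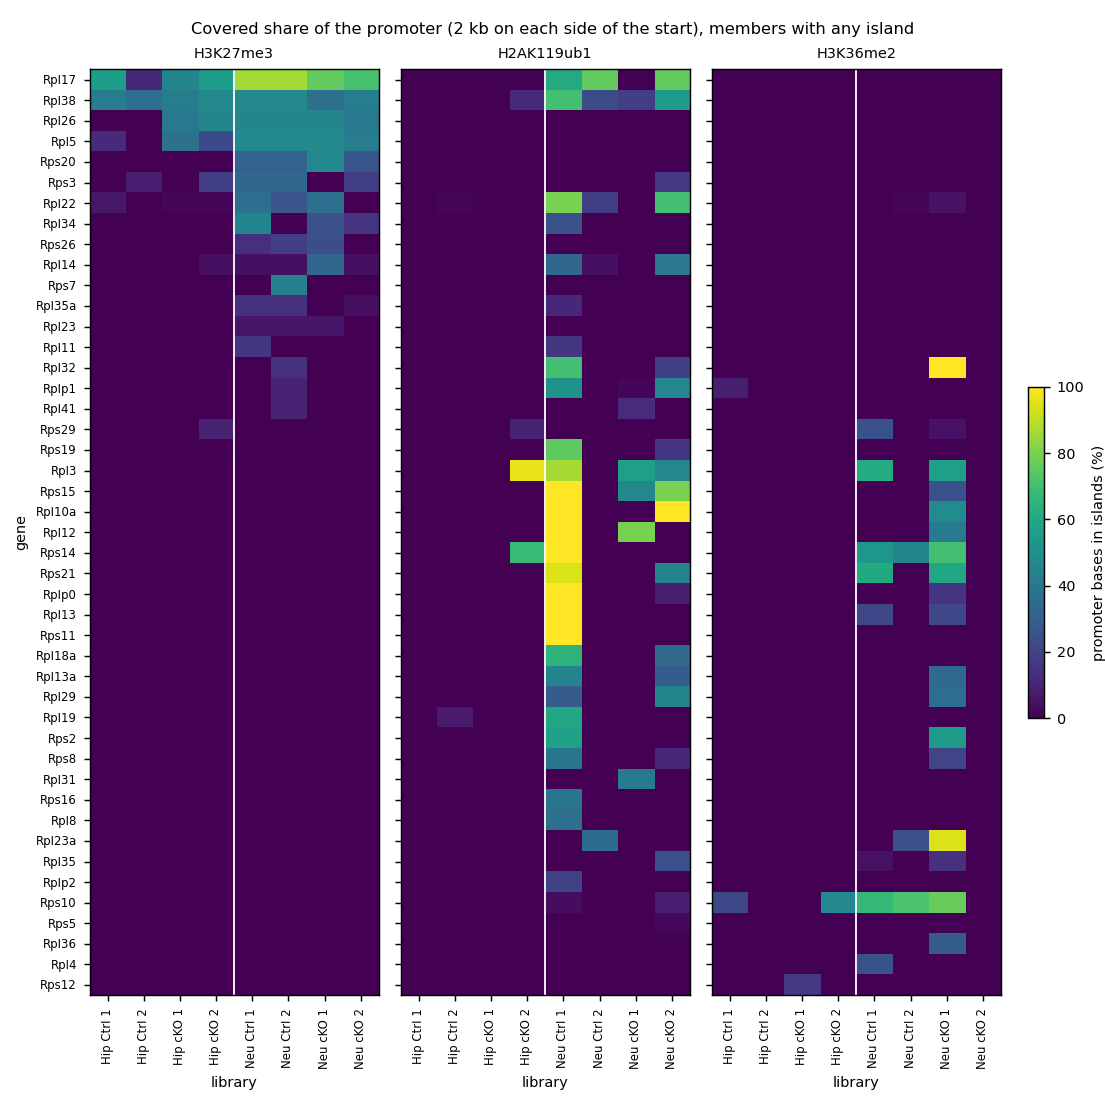
Share of promoter bases inside islands (colour, percent) for each ribosomal protein gene with an island of any mark (rows) in each of the 8 libraries of H3K27me3, H2AK119ub1 and H3K36me2 (columns, hippocampus left and neurosphere right of the white line). An island of H3K27me3 was present in some library at 19 genes, 6 of them in 1 library, with Rpl17 and Rpl38 covered in all 8, whereas 16 of 36 genes with H2AK119ub1 and 13 of 22 with H3K36me2 had it in 1 library, with the most genes in neurosphere Ctrl replicate 1 (29) and neurosphere cKO replicate 1 (19).

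H3K27me3 lay upstream of the principal start of these genes and did not reach it. In hippocampus, 16 pairs of a ribosomal protein promoter and a library had an H3K27me3 island, and the start base was inside it in 0 of the 16. In neurospheres the count was 0 of 49, with the island upstream in 47 and downstream in 2, each of the latter an island of 0.4 kb in neurosphere Ctrl replicate 2 at Rpl41 and Rplp1. At CpG-rich promoters with an island, the start was inside it in 58.0% of 6583 pairs in hippocampus and 52.5% of 8485 in neurospheres, and at the Hox genes in 100% of 156 in both. The mitochondrial ribosomal protein genes, which share no proteins with the cytoplasmic ribosome, had 4% of 25 and 2.38% of 42. Pairs are not independent, since 1 gene contributes several libraries, and no test was made of this difference. By the annotated start the exception was Rpl17, whose annotated start lay inside an H3K27me3 island in 6 of the 8 libraries, hippocampus Ctrl replicate 1, hippocampus cKO replicate 2 and all 4 neurosphere libraries.

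The profile of coverage around the start shows the same asymmetry. Between 10 and 5 kb upstream, H3K27me3 covered on average 11.5% of bases at ribosomal protein genes and 11.2% at CpG-rich promoters in hippocampus, and 22.6% and 23.6% in neurospheres, with overlapping ranges over the 4 libraries. Within 400 bp of the start the means were 0.463% and 10.2% in hippocampus, and 1.28% and 11.99% in neurospheres, and the ranges did not overlap, with 0 to 1.55% against 7.71% to 13.7% in hippocampus and 0.342% to 1.75% against 8.57% to 13.7% in neurospheres. From 1 to 2 kb downstream the ribosomal protein genes had 0% in all 4 hippocampus libraries and 0.228% in neurospheres, while CpG-rich promoters had 11.0% and 11.4%. Coverage then rose with distance to 5.02% at 5 to 10 kb downstream in neurospheres. H2AK119ub1 in neurospheres fell to 3.93% within 400 bp of the start from 20.8% at 10 to 5 kb upstream, and lay at 23.5% at 5 to 10 kb downstream. The lowest library was neurosphere Ctrl replicate 2, with 0% within 400 bp, and the highest was neurosphere Ctrl replicate 1, with 12.4%. H3K36me2 in neurospheres fell from 14.8% at 10 to 5 kb upstream to 1.90% within 400 bp, where CpG-rich promoters had 6.30%, with ranges of 0 to 4.51% and 0.744% to 14.6% that overlapped.

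**Figure D2:**
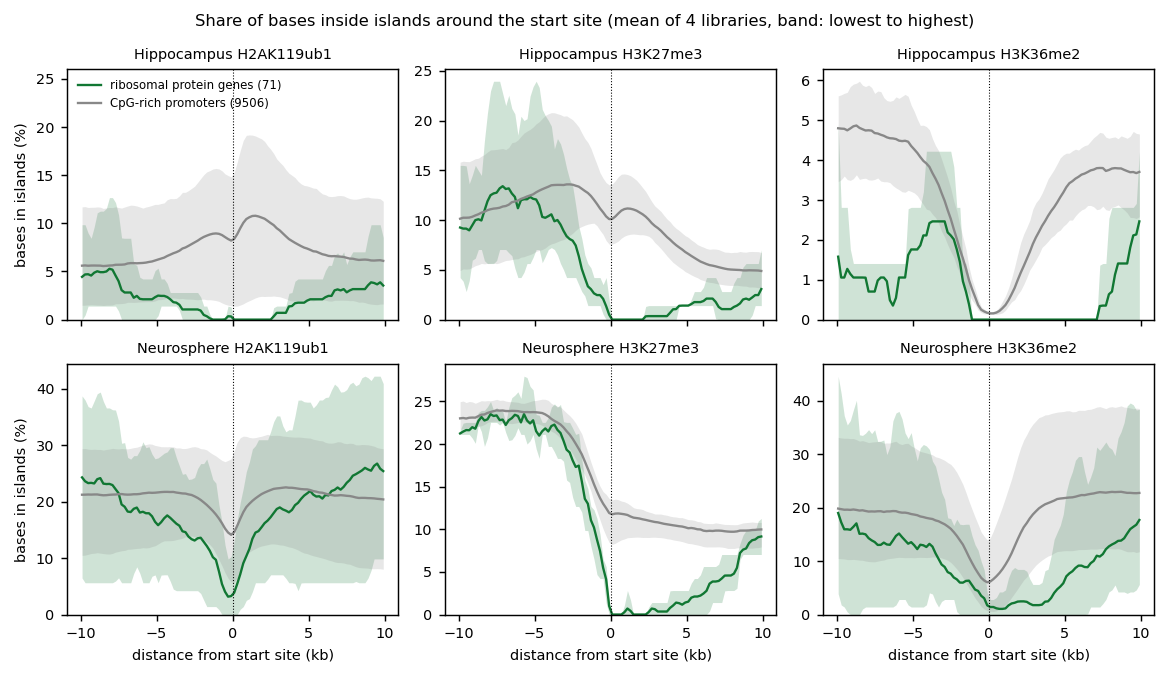
Share of bases inside islands (vertical axes, percent, differing between panels) against the distance from the start of the principal transcript (horizontal axes, kb) for 71 ribosomal protein genes (green) and 9506 CpG-rich promoters (grey), with lines for the mean of 4 libraries and bands from the lowest to the highest library. The H3K27me3 curves meet upstream and part at the start, where the ribosomal protein genes have 0.463% in hippocampus and 1.28% in neurospheres within 400 bp.

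Of the large subunit, 12 of 40 promoters had an H3K27me3 island in any library, and the highest mean coverage was that of Rpl17 and Rpl38. Rpl38, a large subunit protein known for its part in translating Hox mRNAs, had coverage of 41.9% and 36.9% in hippocampus Ctrl, 41.9% and 46.9% in hippocampus cKO, 46.9% and 46.9% in neurosphere Ctrl and 36.9% and 41.9% in neurosphere cKO. All 8 libraries were within 10.0 percentage points of each other. Ctrl and cKO overlapped in hippocampus, while in neurospheres both cKO libraries were below both Ctrl libraries. The island always lay upstream, and the gap between its last base and the start was 324, 524, 324 and 124 bp in the 4 hippocampus libraries and 124, 124, 524 and 324 bp in the 4 neurosphere libraries, in the order of 2 Ctrl and 2 cKO. The island was 4.20 to 5.60 kb long in hippocampus and 34.8 to 72.0 kb in neurospheres, so its far end moved while its near end stayed within 400 bp, which is 2 of the 200 bp windows in which islands are called. The nearest upstream protein-coding gene, Sdk2, starts 601478 bp away.

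Rpl17, which lies at the exit tunnel of the ribosome, had promoter coverage of 56.1% and 11.1% in hippocampus Ctrl, 46.1% and 56.1% in hippocampus cKO, 86.1% and 86.1% in neurosphere Ctrl and 76.1% and 71.1% in neurosphere cKO. All 4 neurosphere libraries were above all 4 hippocampus libraries, and within neurospheres both cKO libraries were below both Ctrl libraries. Part of this coverage comes from the annotated start, which lies 1919 bp upstream of the principal one. Around the principal start Rpl17 had 8.10%, 0, 0 and 8.10% in hippocampus and 38.1%, 38.1%, 28.1% and 23.1% in neurospheres, with gaps of 477 to 1677 bp in the 6 libraries with an island.

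Rpl26, a large subunit protein that also binds the p53 mRNA, had no H3K27me3 island in either hippocampus Ctrl library and 40.5% and 45.5% in hippocampus cKO. In neurospheres it had 45.5% in both Ctrl libraries, and 45.5% and 40.5% in cKO. The hippocampus cKO values thus fell within the range of the neurosphere libraries of both genotypes, with a gap of 183 to 383 bp in all 6 libraries with an island. Rpl5, which with Rpl11 and the 5S ribosomal RNA binds MDM2, had 12.5% and 0 in hippocampus Ctrl, 37.5% and 22.5% in hippocampus cKO, 47.5% and 47.5% in neurosphere Ctrl and 47.5% and 42.5% in neurosphere cKO. Both hippocampus cKO libraries were above both Ctrl libraries, while the neurosphere groups overlapped, and the gap was 102 bp in 3 neurosphere libraries. Rpl11 itself had H3K27me3 in neurosphere Ctrl replicate 1 alone, at 15.7%.

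Rpl22, an RNA-binding protein of the large subunit that is not essential in the mouse, had H3K27me3 coverage of 36.5% and 26.5% in neurosphere Ctrl and 36.5% and 0 in neurosphere cKO, and at most 6.48% in hippocampus. Rpl34 had 44.9% and 0 in neurosphere Ctrl, 24.9% and 14.9% in cKO, and 0 in hippocampus. Rpl14 had 3.93% in both neurosphere Ctrl libraries, 33.9% and 3.93% in neurosphere cKO, and 3.93% in hippocampus cKO replicate 2 alone. In each of these 3 genes the Ctrl and cKO ranges overlapped. Genes longer than the median of the 71 had an H3K27me3 promoter island in neurospheres in 13 of 35 cases and shorter genes in 5 of 36, and the small nucleolar RNA hosts in 6 of 26 and the others in 12 of 45. The other 5 large subunit genes with an island in neurospheres, Rpl35a, Rpl23, Rpl11, Rpl32 and Rpl41, had at most 15.7% in any library.

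Of the small subunit, 6 of 28 promoters had an H3K27me3 island in any library, namely Rps3, Rps7, Rps19, Rps20, Rps26 and Rps29. Rps20, of the head of the small subunit, had 0 in all 4 hippocampus libraries, 31.6% and 31.6% in neurosphere Ctrl and 46.6% and 26.6% in neurosphere cKO. Its gap narrowed to 136 bp in neurosphere cKO replicate 1 and was 736 to 936 bp in the other 3. Rps3, which lines the entry of the mRNA channel, had 0 and 8.43% in hippocampus Ctrl, 0 and 18.4% in hippocampus cKO, 33.4% and 33.4% in neurosphere Ctrl and 0 and 18.4% in neurosphere cKO. Both neurosphere Ctrl libraries were above both cKO libraries at Rps3, and the hippocampus groups overlapped. Rps7 had 43.8% in neurosphere Ctrl replicate 2 alone. Rps26, near the mRNA exit, had 13.7% and 18.7% in neurosphere Ctrl and 23.7% and 0 in cKO.

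The only H3K27me3 island within 100 bp of a start was at Rps29, in hippocampus cKO replicate 2. It was 0.4 kb long, ended 15 bp upstream of the start, and held 157 counts, 11.4 times the mean count per kb of the islands of that library. H2AK119ub1 in hippocampus cKO replicate 2 had an island over the same 0.4 kb with 235 counts, 21.3 times the mean of its library. The annotation places Rn7s1, a gene of the abundant 7SL RNA, on the opposite strand under these islands at chr12:69159295-69159594, and its part in the counts was not tested. In contrast, the median island at ribosomal protein promoters was close to its library mean, at 0.960 times for H3K27me3 in hippocampus and 0.959 times in neurospheres, where islands at CpG-rich promoters had 1.02 and 0.993 times and those at Hox genes 2.06 and 3.26 times.

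**Figure D3:**
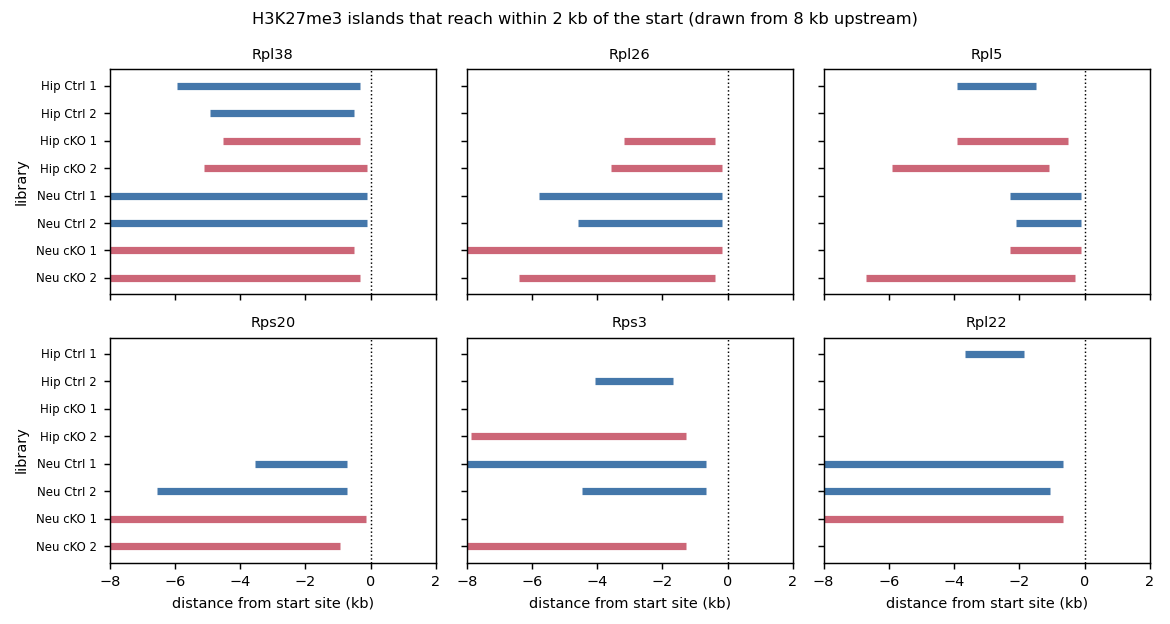
H3K27me3 islands (bars) that reach within 2 kb of the start of 6 ribosomal protein genes in each of the 8 libraries (rows, Ctrl blue, cKO red), against the distance from the start (kb, drawn from 8 kb upstream to 2 kb downstream, so bars that touch the left edge go on). No bar crosses the dotted line at the start of the principal transcript, and at Rpl38 the near end lies 124 to 524 bp upstream in all 8 libraries.

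H2AK119ub1 was nearly absent from these promoters in hippocampus and varied widely between neurosphere libraries. An island was present at 0, 2, 0 and 4 of the 71 promoters in hippocampus Ctrl replicates 1 and 2 and cKO replicates 1 and 2, and at 29, 5, 7 and 20 in neurospheres in the same order. The 29 were those of neurosphere Ctrl replicate 1, the library with the largest covered length of this mark. In all, 36 genes had an island in some library, 16 of them in 1 library. The share with no island in any library was 49.3%, near the 43.5% of CpG-rich promoters and 46.8% of all. One in all 4 neurosphere libraries was found at 1 gene, Rpl38 (1.41%), against 8.41% of CpG-rich promoters and 7.08% of all. At CpG-rich promoters 754, 2069, 433 and 2443 of 9506 had one in hippocampus and 3830, 1823, 2325 and 3265 in neurospheres.

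Among large subunit genes, Rpl38 had 70.0% and 23.1% in neurosphere Ctrl, 18.1% and 55.0% in neurosphere cKO and 11.9% in hippocampus cKO replicate 2. Here the mark lay on both sides, with islands upstream that ended 524 to 1524 bp before the start and others that began 677 to 1277 bp after it, and the start was left out in each of the 5 libraries with an island. Rpl17 had 61.1% and 76.1% in neurosphere Ctrl and 0 and 76.1% in cKO. Rpl22 had 80% and 18.5% in neurosphere Ctrl and 0 and 70.0% in cKO. At each of these genes the Ctrl and cKO libraries overlapped.

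Rpl3, at the peptidyl transferase centre, had the highest mean H2AK119ub1 coverage. The hippocampus cKO replicate 2 library had 96.7%, the other 3 hippocampus libraries 0, the neurosphere Ctrl libraries 86.7% and 0 and the neurosphere cKO libraries 56.7% and 46.7%. Its annotated start lies 8462 bp from the principal one, and the gene as annotated overlaps Syngr1, which encodes a synaptic vesicle protein on the other strand. Around the principal start the values were 0 in all 4 hippocampus libraries, 29.9% and 0.125% in neurosphere Ctrl and 0 in both cKO libraries. Rps15, of the decoding region, had 100% and 0 in neurosphere Ctrl and 46.3% and 80% in cKO. Rpl14 had 33.9% and 3.93% in neurosphere Ctrl and 0 and 40% in cKO.

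The 3 stalk genes encode the acidic proteins that recruit elongation factors to the ribosome. In neurospheres Rplp0 had H2AK119ub1 over 100% and 0 of its promoter in Ctrl and over 0 and 8.35% in cKO. Rplp1 had 51.5% and 0 in neurosphere Ctrl and 1.48% and 46.5% in cKO, and Rplp2 had 19.2% in neurosphere Ctrl replicate 1 alone. The stalk promoters had no island of this mark in hippocampus, and H3K27me3 covered 10% of Rplp1 in 1 library and nothing at the other two. Rpl32 had 70.0% in neurosphere Ctrl replicate 1 and 18.7% in cKO replicate 2, and Rpl13a had 45% and 29.0% in the same libraries. Rpl4, Rpl30, Rps6 and Rps27a had no H2AK119ub1 island in any library.

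H3K36me2 was found at 3, 0, 1 and 1 of the 71 promoters in hippocampus and at 8, 4, 19 and 0 in neurospheres, in the order of 2 Ctrl and 2 cKO. The 19 were those of neurosphere cKO replicate 1, the library of the largest covered length, while neurosphere cKO replicate 2 had none. At CpG-rich promoters the shares were 2.37%, 1.89%, 4.03% and 2.76% in hippocampus and 19.7%, 19.4%, 46.8% and 12.3% in neurospheres, in the same order. Single-library values reached 100% at Rpl32 and 94.6% at Rpl23a in neurosphere cKO replicate 1. Rps10, near the mRNA entry, had the highest mean coverage over the 8 libraries, 35.4%, with 21.7% and 0 in hippocampus Ctrl, 0 and 46.7% in hippocampus cKO, 66.7% and 71.7% in neurosphere Ctrl and 76.7% and 0 in neurosphere cKO. Its promoter was not CpG-rich by the annotated start, and an antisense transcript, Gm15420, and the read-through gene RPS10-NUDT3 overlap it. Rps14, which as annotated overlaps Ndst1 on the other strand, had 52.6% and 45% in neurosphere Ctrl and 70.0% and 0 in cKO around the annotated start, and 0 and 0 in Ctrl and 25.1% and 0 in cKO around the principal start. Around the annotated start of both genes, the 2 neurosphere cKO libraries lay on opposite sides of the neurosphere Ctrl libraries.

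Along gene bodies H3K36me2 was low, with a mean coverage of 0.134%, 0, 0 and 0.475% in hippocampus and 2.54%, 1.09%, 7.10% and 0.134% in neurospheres. CpG-rich genes, whose median length is 26552 bp, had 1.99% to 3.47% in hippocampus and 8.74% to 35.1% in neurospheres. The 5 highest bodies were those of Rps14, Rpl35, Rpl11, Rpl32 and Rpl29. Rpl11 had 27.6% and 12.7% in neurosphere Ctrl and 47.4% and 9.54% in cKO and was the only body with this mark in all 4 neurosphere libraries. Rpl35 had 54.9% and 0 in Ctrl and 64.8% and 0 in cKO, and Rpl32 and Rpl29 had 78.5% and 74.1% in neurosphere cKO replicate 1 alone. H3K27me3 covered at most 1.29% of the bodies on average, with Rpl17 and 6 others carrying any, and H2AK119ub1 covered at most 0.532% in hippocampus and 5.12% to 30.4% in neurospheres.

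Between the genotypes, no mean promoter coverage of the 71 genes stood out from the spread between libraries for H2AK119ub1 or H3K36me2. For H2AK119ub1 it was 0.0616% ± 0.0871 (mean ± SD, n = 2) in hippocampus Ctrl and 1.31% ± 1.85 in cKO, and 13.6% ± 16.0 and 7.25% ± 5.15 in neurospheres. For H3K36me2 it was 0.217% ± 0.307 and 0.448% ± 0.297 in hippocampus, and 3.24% ± 1.74 and 5.70% ± 8.06 in neurospheres. The libraries of the genotypes overlapped in these 4 comparisons.

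For H3K27me3 the libraries did not overlap in either source, and the directions were opposite. In hippocampus the mean coverage was 1.65% and 0.795% in Ctrl against 2.36% and 2.88% in cKO, a difference of 1.40 percentage points (1.22% ± 0.603 and 2.62% ± 0.372, mean ± SD, n = 2). In neurospheres it was 5.999% and 6.17% in Ctrl against 5.32% and 3.71% in cKO, a difference of -1.57 percentage points (6.08% ± 0.118 and 4.51% ± 1.13). Leaving out 1 library at a time, the hippocampus difference ranged from 0.974 points without Ctrl replicate 2 to 1.83 without Ctrl replicate 1, and the neurosphere difference from -2.37 without cKO replicate 1 to -0.767 without cKO replicate 2. Over CpG-rich promoters the differences were 1.39 and -2.56, and over all autosomal promoters 3.30 and -0.600, so the direction at ribosomal protein genes was also that of these wider lists. With 2 libraries against 2 an exact permutation test cannot give a p below 0.333, and none was made over the genes. By subunit, the hippocampus difference was 2.23 points for the large subunit and 0.357 for the small subunit, and the neurosphere difference was -1.51 and -1.65. When the islands of each library were taken from the densest down to an equal covered length, the hippocampus difference fell to 0.743 points. Over gene bodies H3K27me3 coverage was 0.92% and 1.29% in neurosphere Ctrl against 0.305% and 0.246% in cKO, a difference of -0.83 points that was -0.395 with islands of at least 2 kb.

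**Figure D4:**
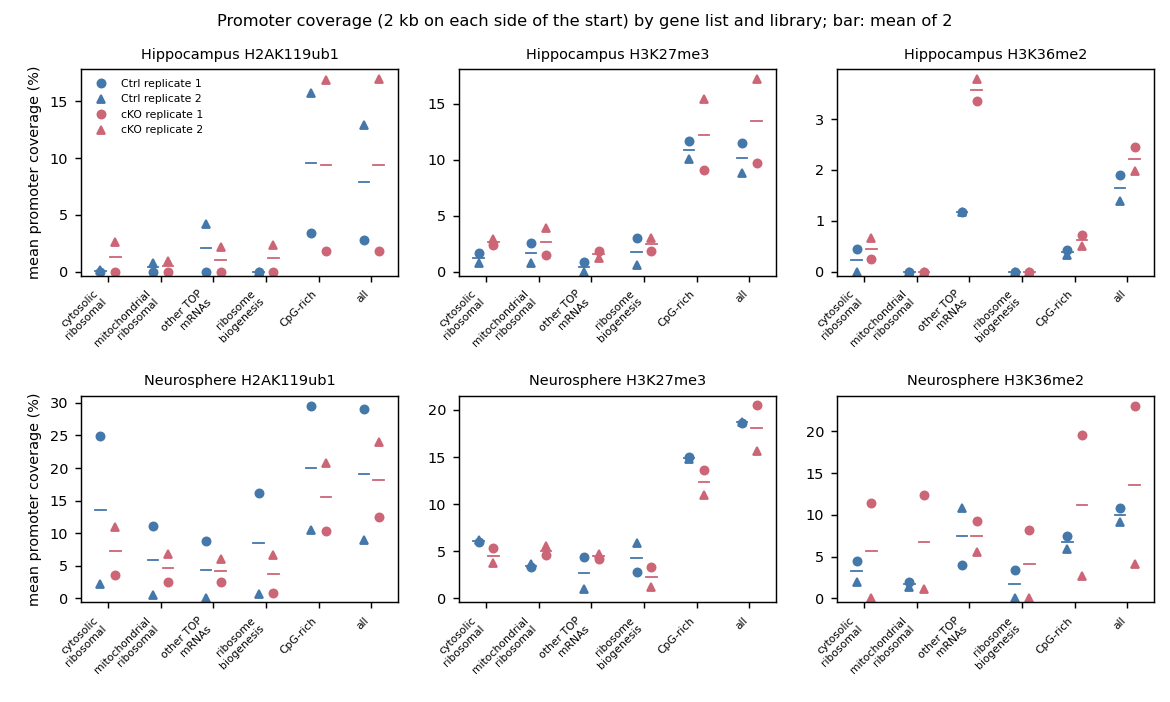
Mean promoter coverage (vertical axes, percent, differing between panels) of the cytosolic ribosomal protein genes and 5 other gene lists in each library (points, Ctrl blue, cKO red, circle replicate 1, triangle replicate 2), with a bar at the mean of 2 libraries. The ribosomal protein genes lie below the CpG-rich and all promoters in each of the 8 H3K27me3 libraries, at 0.795% to 2.88% in hippocampus and 3.71% to 6.17% in neurospheres.

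Loss was counted where both Ctrl libraries and neither cKO library held an island at the promoter, and gain in the opposite case. In hippocampus, 0 of the 71 lost H2AK119ub1 (0.25% of 20807 autosomal promoters did) and 0 gained it (0.452%). For hippocampus H3K27me3, 0 were lost (0.226%) and 1 was gained (1.82%), which was Rpl26 and was not counted at equal covered length. For hippocampus H3K36me2 both counts were 0 (0.365% lost and 0.625% gained). A single promoter of 71 is 1.41%, near these shares.
In neurospheres, 0 lost (1.45%) and 0 gained (1.47%) H2AK119ub1. For H3K27me3, 1 was lost (1.58%), which was Rps19, the gene most often mutated in Diamond-Blackfan anaemia, and 0 were gained (1.12%). The Rps19 loss covered 0.750% of the promoter in each Ctrl library, the edge of an island 1971 bp upstream. For H3K36me2 both counts were 0 (0.774% lost and 1.47% gained).

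Counts were compared over merged regions with islands in each of the 4 libraries of a mark and source, with edgeR's quasi-likelihood test over all regions. No region passed a false discovery rate (FDR) of 0.05 in any of the 6 comparisons (0% of 2750, 4387 and 6447 regions for H2AK119ub1, H3K27me3 and H3K36me2 in hippocampus, and 0% of 6060, 11262 and 34454 in neurospheres). Regions with an unadjusted p under 0.05 numbered 30, 155 and 318 in hippocampus and 101, 2077 and 736 in neurospheres, and DESeq2's Wald test called 0, 3 and 17, and 32, 734 and 83. No ribosomal protein gene lay in a tested region of hippocampus H2AK119ub1 or H3K36me2, and 4 did for hippocampus H3K27me3, with log2 fold changes (cKO over Ctrl) from -0.15 to 0.16.

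The neurosphere H3K27me3 regions at 14 ribosomal protein genes had lower counts in cKO in 12 and higher counts in 2, with a median log2 fold change of -0.54. Over all 11262 regions the median was 0.01 and 49.0% were lower. None of the 14 passed the FDR in edgeR, and 4 had an unadjusted p under 0.05, beside 2077 of all 11262 regions. These regions were 5.2 to 209 kb long and reach far beyond the genes they touch, so their counts describe the domain upstream more than the promoter. All 12 were also lower with DESeq2's size factors, where the median was -0.53. In the counts as deposited, both cKO libraries were below both Ctrl libraries at 10 of the 14 regions and above them at 0, beside 25.6% below and 21.4% above over all 11262 regions. Divided by the total of each library in islands these were 9 and 2 of the 14, and 19.3% and 36.6% of all regions.

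The region upstream of Rpl17 held 9587 and 7425 counts in Ctrl against 4004 and 3711 in cKO, a log2 fold change of -1.13 (edgeR quasi-likelihood test, adjusted p = 0.175). The Ctrl and cKO counts did not overlap. Its covered length was 73.8 and 71.2 kb in Ctrl and 68.6 kb in both cKO libraries, and the counts per kb were 130 and 104 in Ctrl and 58.4 and 54.1 in cKO, so most of the difference lay in counts per kb. Over all islands of the 4 libraries, the counts per kb were also lower in cKO, at 60.2 and 52.3 in Ctrl and 43.2 and 42.0 in cKO.
At Rps14, whose loss is tied to a form of myelodysplastic syndrome, a region of 12 kb that touches the 3′ end of the gene held 721 and 515 counts in Ctrl against 213 and 249 in cKO, a log2 fold change of -1.40 (edgeR, adjusted p = 0.175). DESeq2's Wald test put the regions of Rps14 (adjusted p = 0.00548) and Rpl17 (adjusted p = 0.00783) past the threshold and no other of the 14 regions. The same test called 734 of all 11262 regions.

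At Rpl38 the region of 209 kb held 15480 and 12113 counts in Ctrl against 9780 and 8033 in cKO, a log2 fold change of -0.62 (edgeR, adjusted p = 0.222). At Rpl22 the values were 2240 and 1994 in Ctrl against 1298 and 666 in cKO, with a log2 fold change of -1.09 (edgeR, adjusted p = 0.252). Neither passed the threshold, although the groups did not overlap. The 2 genes with higher fitted counts were Rps20, at 7778 and 5699 in Ctrl and 6271 and 10480 in cKO with a log2 fold change of 0.32, and Rpl5, at 0.03. Without neurosphere cKO replicate 1, the log2 fold changes were -1.95 at Rpl22, -1.73 at Rps19 and -0.71 at Rpl14. They were -1.05 at Rpl38, -1.57 at Rps14 and -1.47 at Rpl17. These genes were picked because they stood out in that fit, and the other regions are not given. That fit has 1 cKO library, whose spread was taken from the other libraries, so no call is made from it.

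**Figure D5:**
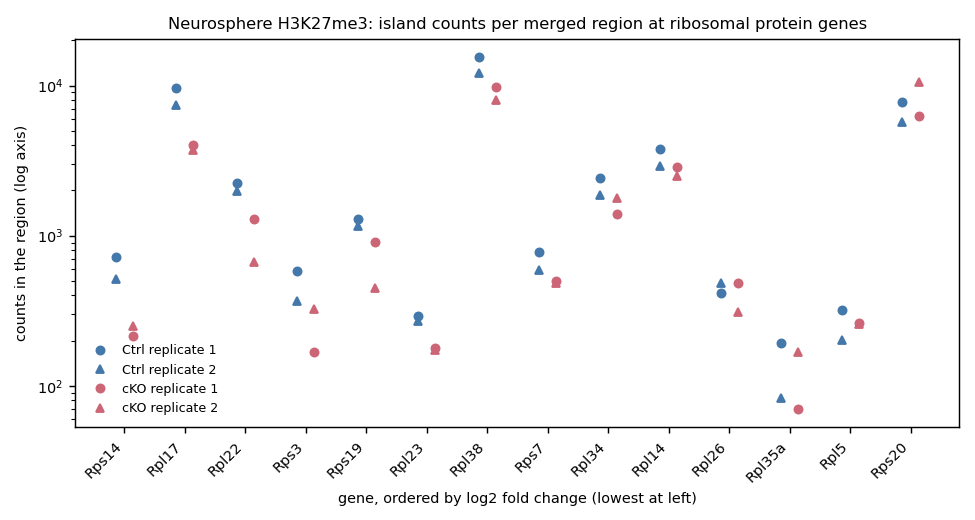
Counts in H3K27me3 islands per merged region (vertical axis, logarithmic) in the 4 neurosphere libraries (Ctrl blue, cKO red, circle replicate 1, triangle replicate 2) at 14 ribosomal protein genes, ordered from the lowest log2 fold change. The counts are as deposited and not scaled between libraries, whose totals in islands were 17025504 and 14008986 in Ctrl and 13195590 and 13502744 in cKO. Both cKO points lie below both Ctrl points at 10 of the 14 regions, among them Rps14, Rpl17, Rpl22 and Rpl38, and no region passed an FDR of 0.05.

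In neurospheres, 13 H2AK119ub1 regions at 11 ribosomal protein genes had log2 fold changes from -0.72 at Rpl17 to 0.44 at Rpl38, 7 lower and 6 higher, and their lowest adjusted p was 1.00 in edgeR. Without neurosphere Ctrl replicate 1, the log2 fold changes were 2.51 at Rpl22, 3.002 at Rplp0, 1.92 at Rpl38 and -1.01 at Rpl17, regions picked from that fit. The Ctrl library left, replicate 2, had the smallest covered length of this mark in neurospheres. Its islands covered 11.4, 4.8 and 8 kb of the regions at Rpl22, Rplp0 and Rpl38, against 24.2 to 108.4 kb in the cKO libraries. At Rpl17 they covered 59 kb, against 28.8 and 57 kb in cKO. The spread of the 1 Ctrl library was taken from the others, and no call is made from that fit. The 5 H3K36me2 regions, at Rpl35, Rps21, Rpl11, Rps10 and Rps14, were lower in 4 and higher in 1, with a lowest adjusted p of 0.962. Neurosphere cKO replicate 2 had the lowest count in each of the 5. Without neurosphere cKO replicate 1, the log2 fold changes were -2.69 at Rps21 and -4.08 at Rps14, regions again picked from that fit. The spread of the 1 cKO library was again taken from the others, and no call is made from it.

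Related gene lists are given for comparison. The 78 mitochondrial ribosomal protein genes had mean H3K27me3 promoter coverage of 0.775% to 3.89% in hippocampus and 3.30% to 5.56% in neurospheres, the 16 other genes of TOP mRNAs 0 to 1.86% and 0.989% to 4.71%, and the 20 ribosome biogenesis genes 0.538% to 3.04% and 1.26% to 5.86%. The 39 Hox genes had 100% in all 8 libraries. H3K36me2 in hippocampus was at 0 in all 4 libraries for the mitochondrial and biogenesis lists. The neurosphere difference of H3K27me3 between genotypes was -1.57 points for the cytoplasmic ribosomal protein genes and 1.62 for the mitochondrial ones. In that list both cKO libraries, at 4.59% and 5.56%, were above both Ctrl libraries, at 3.30% and 3.61%, and the difference between the lists was not tested. Promoters free of all marks in 24 libraries made up 29.5% of the mitochondrial, 37.5% of the TOP and 40% of the biogenesis list.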

How the data were processed

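ChIP-seq for 3 marks was analysed in 24 of 36 samples, and the 12 inputs were not analysed here. Groups and replicate numbers came from the labels. The authors trimmed reads with cutadapt, aligned them to mm10 with Bowtie2 2.4.5, removed duplicates with samtools and called islands in each library against input with SICER (window 200 bp, gap 600 bp, FDR 0.01, version not given in the sources used here). The deposited counts are reads per island, not normalised by the authors, and a stretch without an island has no count. The 9 mitochondrial islands, in 5 libraries, were left out.

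Promoters were 2 kb on each side of the start of GENCODE vM21 genes (mm10), and an overlap of 1 bp counted as an island. Islands of the 4 libraries of a mark and source were merged, and regions with an island in all 4 were tested with edgeR 4.0.16 (R 4.3.3; TMM, quasi-likelihood, Benjamini-Hochberg adjustment over all regions). DESeq2 1.42.0, other scalings, thresholds and each library left out served as alternatives. Interval operations used Python 3.11.15 (scipy 1.17.1, numpy 2.4.6). Code was tested on simulated data. Depth is known as counts in islands only, which carry no molecular identifiers, so the spread between 2 libraries was used as the error.

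Replicate numbers are shared between genotypes, but the labels do not say that a number marks a shared animal or day, and the samples were not paired. The genes and lists were chosen with earlier results of these data known. Genes were named when they had an H2AK119ub1, H3K27me3 or H3K36me2 island at the promoter in both libraries of a source and genotype (up to 10 per mark by mean coverage), were lost or gained, or were among the 5 highest gene bodies for H3K36me2, beside a fixed list of 11. Other genes were named after their values were seen.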

Additional observations from a re-analysis of the deposited data

Results flagged for a closer look

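The difference between cKO and Ctrl in mean H3K27me3 promoter coverage of the 71 ribosomal protein genes had opposite signs in the 2 sources, at 1.40 percentage points (cKO minus Ctrl) in hippocampus and -1.57 in neurospheres. Every cKO library lay above every Ctrl library in hippocampus and below in neurospheres. The difference between the sources was not tested. These means rest on few genes. An H3K27me3 island was present in some hippocampus library at 8 of the 71 promoters and in some neurosphere library at 18. In each source the direction was also that of CpG-rich promoters and of all autosomal promoters, so it was not particular to ribosomal protein genes. The covered length of H3K27me3 ranged from 54.9 to 160 Mb in hippocampus and from 268 to 321 Mb in neurospheres, and at an equal covered length the hippocampus difference was 0.743 points.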

How the results depend on the processing

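Of 222 alternatives, 179 kept the value within the spread between replicates or the count within 1.5 times, and 43 did not. With 2 libraries per group, leaving out 1 library cannot move a coverage difference beyond that spread. The 24 promoter and 24 gene body values with 1 library left out were therefore kept by construction and are no evidence of stability. The neurosphere H2AK119ub1 promoter difference, for example, ranged from -17.6 to 5.04 percentage points among them. With DESeq2's Wald test the number of regions past FDR rose from 0 to 3 (hippocampus H3K27me3), 17 (hippocampus H3K36me2), 32 (neurosphere H2AK119ub1), 734 (neurosphere H3K27me3) and 83 (neurosphere H3K36me2). With the replicate number as a block, 9 regions passed for hippocampus H3K27me3, none at a ribosomal protein gene, and 0 in the other 5 comparisons, and since the numbers only name the samples this is no paired analysis. At equal covered length the hippocampus H3K27me3 difference was 0.743 in place of 1.40 percentage points, 0 promoters in place of 1 gained it, 1 promoter (Rpl17) in place of 0 lost H2AK119ub1 in neurospheres, and 2 (Rps19 and Rps26) in place of 1 lost H3K27me3. When at least 50% of the promoter had to be covered, 0 gained H3K27me3 in hippocampus and 0 lost it in neurospheres. With the start of the principal transcript, an alternative chosen after seeing the data, 1 (Rpl3) lost H2AK119ub1 in neurospheres. With islands of at least 2 kb the neurosphere H3K27me3 body difference was -0.395 in place of -0.830.

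Leaving out 1 library at a time gave 0 to 34 regions past FDR for hippocampus H3K27me3, 0 to 789 for neurosphere H2AK119ub1, 0 to 2762 for neurosphere H3K27me3 and 0 to 2161 for neurosphere H3K36me2. The highest counts came without hippocampus cKO replicate 1, neurosphere Ctrl replicate 1, neurosphere cKO replicate 1 and neurosphere cKO replicate 1. Promoters gained were 0 to 4 and lost 0 to 2 for hippocampus H2AK119ub1, gained 1 to 3 for hippocampus H3K27me3, and gained 0 to 1 and lost 0 to 2 for hippocampus H3K36me2. In neurospheres gained were 0 to 3 and lost 0 to 11 for H2AK119ub1, gained 0 to 1 and lost 2 to 5 for H3K27me3, and gained 0 to 10 and lost 0 to 2 for H3K36me2. A genotype left with 1 library calls a promoter on that library alone.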

Other observations

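Ribosomal protein genes outside the rule and paralogues gave these values for H3K27me3 promoter coverage. On chromosome X, Rpl36a had 98.7% and 83.7% in neurosphere Ctrl and 0 and 100% in neurosphere cKO, and 0 in hippocampus. Rps4x had 100% and 80% in neurosphere Ctrl, 0 and 100% in neurosphere cKO and 60.0% in hippocampus Ctrl replicate 1. Rpl10 had 80% in neurosphere Ctrl replicate 1 alone. Rpl39, also on chromosome X, had no island of any mark at the promoter in the 24 libraries. The highest coverages of Rpl36a, Rps4x and Rpl10 were above those of most autosomal genes of the cytoplasmic ribosome. The highest autosomal value was 86.1% at Rpl17. The labels give no sex for these libraries.

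Among the paralogues, Rpl3l, a form of Rpl3 made in striated muscle, had 0 in hippocampus Ctrl, 10.5% and 90.5% in hippocampus cKO, 85.5% and 95.5% in neurosphere Ctrl and 85.5% and 0 in neurosphere cKO. Rpl39l, a form of Rpl39 found in the testis, had 40% and 45% in neurosphere Ctrl and 0 in both neurosphere cKO libraries. By the count of losses above, 1.58% of 20807 autosomal promoters also lost H3K27me3 in neurospheres. Rpl10l, also of the testis, had no H3K27me3 and carried H3K36me2 over 40% and 50% in neurosphere Ctrl and 50% and 35% in cKO. The autosomal genes Rpsa, Fau and Rack1 and the paralogues Rpl22l1 and Rpl36al had no island of any mark at the promoter in 24 libraries.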
